A study of Mus musculus with 27 samples.

Results

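Glutathione transferases were followed here through 10 genes taken from a named list: Gstm1, Gstm2, Gstm4 and Gstm5 of the mu class, Gsta4 of the alpha class, Gstp1 of the pi class, Gstt1 of the theta class, Gsto1 of the omega class, Gstk1 of the kappa class and the microsomal Mgst1. They are 10 of 54532 gene rows in the deposited count table, and all 10 passed the filter on low counts in every comparison. The series holds 27 libraries of laser-captured mouse thyroid tissue, sequenced from the 3′ ends of transcripts. The lesion group (PL) is 9 proliferative lesions from 9 radiation-exposed mice, and the normal tissue group (NT) is histologically normal thyroid that lay next to abnormal tissue in the same 9 mice. The normal control group (NCT) is thyroid of 9 mice that were not exposed. Each group has 3 males and 6 females, and exposed mice are called here by the replicate number that PL and NT share. The labels give no dose, strain, age or time after exposure, and every exposed mouse bore a lesion, so exposure, bearing a lesion and lying beside one cannot be told apart in NT. Nothing in the labels says whether a library holds 1 dissected area or several.

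Glutathione transferases join glutathione, the main small thiol of the cell, to electrophiles such as drug metabolites and products of lipid peroxidation, and the conjugates are then exported and trimmed outside the cell. The cytosolic enzymes are dimers sorted into classes named by Greek letters, the kappa enzyme is found in mitochondria and peroxisomes, and Mgst1 encodes a membrane protein of the endoplasmic reticulum and the outer mitochondrial membrane. Thyroid follicular cells make hydrogen peroxide for hormone synthesis, and many genes of glutathione metabolism are known targets of the transcription factor NRF2.

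The 4 mu class members lie within 1 stretch of chromosome 3 (GRCm38), on the minus strand at 108012255 to 108017973 for Gstm1 (ENSMUSG00000058135), 107981702 to 107986453 for Gstm2 (ENSMUSG00000040562) and 108040408 to 108044894 for Gstm4, and on the plus strand at 107895821 to 107898686 for Gstm5. Their closeness in sequence bears on whether a read can be given to the right gene. Gstm1 was 86.0% identical to Gstm2 over the coding sequence, 80.5% to Gstm4 and 69.8% to Gstm5. Over the last 300 bases of the transcript, where this library type reads, the identity of Gstm1 was 51.6% with Gstm2, 48.1% with Gstm4 and 50.3% with Gstm5. The last 60 coding bases, stop codon included, are shown from the GENCODE M21 transcripts, at chr3:108012689-108012748 (minus strand) for Gstm1, chr3:107982049-107982108 (minus) for Gstm2, chr3:108041236-108041295 (minus) for Gstm4 and chr3:107898490-107898549 (plus) for Gstm5, with capitals where a base differs from Gstm1 in an ungapped comparison.
Gstm1: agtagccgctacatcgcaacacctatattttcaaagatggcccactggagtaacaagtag
Gstm2: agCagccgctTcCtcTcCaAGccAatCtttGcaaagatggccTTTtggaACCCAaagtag
Gstm4: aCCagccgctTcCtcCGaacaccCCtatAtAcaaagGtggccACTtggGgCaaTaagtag
Gstm5: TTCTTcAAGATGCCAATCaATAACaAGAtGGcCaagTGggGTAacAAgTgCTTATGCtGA
Gstm2 differed from Gstm1 at 18 of these 60 bases, Gstm4 at 17 and Gstm5 at 45, the last because its coding sequence is longer and ends on other codons. By the gene coordinates above, these coding ends lie over 300 bases from the gene end for Gstm1, Gstm2 and Gstm4. The differences shown for these genes are therefore not those of the last 300 bases. No run of 50 bases in the last 300 of these 4 transcripts was found in another annotated transcript. For 9 of the 10 members no such run was shared.

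Gstp1 was the exception. All 50-base runs in the last 300 bases of its transcript also occur in Gstp2, a neighbouring gene on chromosome 19, and 73.7% of them occur in Gstp-ps, a processed pseudogene on chromosome 1. The coding sequences of Gstp1 and Gstp2 were 98.1% identical. The final 60 coding bases of Gstp1 (chr19:4035473-4035532, minus strand), of Gstp2 (chr19:4040351-4040410, minus) and the matching stretch of Gstp-ps (chr1:192073820-192073879, minus) are shown because reads from this end match more than 1 row.
Gstp1: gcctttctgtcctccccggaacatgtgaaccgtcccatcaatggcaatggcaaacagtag
Gstp2: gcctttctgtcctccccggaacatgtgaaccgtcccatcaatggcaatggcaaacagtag
Gstp-ps: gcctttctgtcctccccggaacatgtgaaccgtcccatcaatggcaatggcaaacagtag
No base differed among the 3. The deposited counts showed the same: over the 27 libraries the Gstp2 row held 96.3% to 100% of the Gstp1 count and the Gstp-ps row 84.8% to 103%. Values given for Gstp1 therefore describe these 3 rows together, and how the reads were shared among them is not given in the sources used here.

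**Figure D1:**
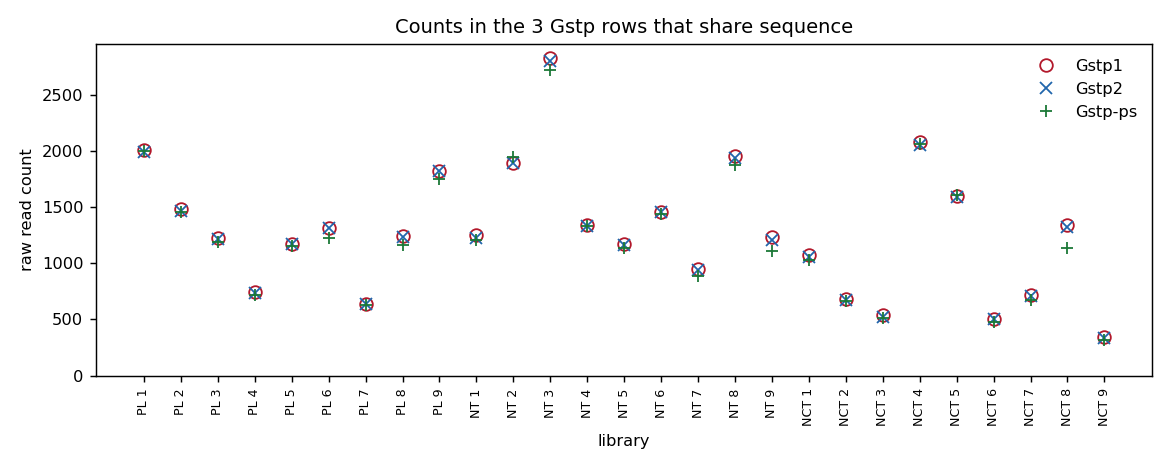
Raw read counts (y axis) of Gstp1 (circles), Gstp2 (crosses) and the pseudogene Gstp-ps (plus signs) in each of the 27 libraries (x axis, PL, NT and NCT with replicate numbers). The 3 symbols nearly coincide in every library, with Gstp2 at 96.3% or more of the Gstp1 count.

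Libraries held 2923851 to 14148601 counts, with medians of 6479022 in PL, 7220957 in NT and 4622595 in NCT. Levels are given as CPM, a gene's count scaled to the total of its library with TMM factors, and fold changes, standard errors (SE) and Benjamini-Hochberg adjusted p-values come from edgeR's quasi-likelihood test over all genes tested, with the mouse as a block in PL against NT. A gene is called at an adjusted p under 0.05. Thyroid markers were high in all groups, with Tg, which encodes thyroglobulin, averaging 23310 CPM in PL, 27067 CPM in NT and 39389 CPM in NCT. Markers of other tissues varied widely between libraries. The summed level of 14 airway and squamous epithelium markers, none of which was at 0 throughout a group, had a lowest, median and highest value of 43.7, 76.0 and 561 CPM in PL, of 176, 1297 and 7601 CPM in NT, and of 441, 1663 and 8241 CPM in NCT. The 10 C cell markers summed to 105, 137 and 18276 CPM in PL, to 460, 1566 and 16787 CPM in NT, and to 1361, 3474 and 8563 CPM in NCT. Parathyroid hormone (Pth) passed 2000 CPM in 5 libraries (PL replicate 2, NT replicates 7 and 9, NCT replicates 5 and 8), and the airway gene Bpifa1 in 5 (NT replicates 7, 8 and 9, NCT replicates 8 and 9). The highest C cell sums of PL and NT were those of PL replicate 2 and NT replicate 7, which are among the Pth libraries. The C cell gene Calca stood at 72.4 CPM in PL replicate 2 and 1805 CPM in NT replicate 7. It reached at most 324 CPM in PL. In bulk tissue, fewer cells of a type and less RNA per cell cannot be told apart.

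Lesions were set against the normal tissue of the same mouse to ask how the transferases differ within an animal. Gstm1 and Gstm2 fell in lesions, no member rose in edgeR's test, and 8 of the 10 members had a fold change below 0. The 2 called members stand beside 3.08% of 14461 genes called in this comparison, with 1.31% called as lower and 1.76% as higher. DESeq2, which called 9.06% of the 14180 genes to which it gave an adjusted p, called 5 members, with Gstm1, Gstm2, Gsta4 and Gsto1 lower and Mgst1 higher. The median log2 fold change of the 10 members was -0.36, against 0.0025 for all genes tested.

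Gstm1 encodes a mu class enzyme that acts on aromatic electrophiles and epoxides. Its level had a lowest, median and highest value of 49.7, 90.2 and 142 CPM in PL, 111, 184 and 384 CPM in NT, and 137, 206 and 304 CPM in NCT. It was lower in the lesion than in the paired normal tissue in 9 of 9 mice, and the ranges of PL overlapped those of NT and of NCT only at their ends. Over all genes tested, 3.54% went 1 way in all 9 mice. The log2 fold change in PL against NT was -1.20 (SE 0.23, adjusted p = 0.0184), a 2.30-fold lower level. By mouse, the log2 difference was smallest in mouse 5, at -0.38, and largest in mouse 8, at -2.81.

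Gstm2, the mu class neighbour of Gstm1, had the more negative fold change of the called members. It stood at 4.39, 13.7 and 16.7 CPM (lowest, median and highest) in PL, 12.5, 32.4 and 120 CPM in NT, and 35.1, 48.2 and 70.6 CPM in NCT. Every lesion was below every NCT library, and 9 of 9 lesions were below the NT library of their mouse, though the PL and NT ranges overlapped. The log2 fold change in PL against NT was -1.79 (SE 0.38, adjusted p = 0.0332), a 3.46-fold lower level. This call rested on most of the mice: it was kept when mouse 1, 5 or 6 was left out and lost when mouse 2, 3, 4, 7, 8 or 9 was, with adjusted p-values up to 0.0889. Gstm1 stayed called in all 9 such fits, with adjusted p-values up to 0.0477.

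The other 2 mu class members of the same gene cluster did not pass the test. Gstm4 averaged 8.22 ± 2.23 CPM in PL, 9.34 ± 2.54 CPM in NT and 8.16 ± 2.51 CPM in NCT (SD, n = 9 each), and Gstm5 averaged 21.8 ± 6.49, 18.7 ± 4.15 and 23.8 ± 3.72 CPM in PL, NT and NCT. Their log2 fold changes in PL against NT were -0.17 for Gstm4 (SE 0.24, adjusted p = 0.774) and 0.21 for Gstm5 (SE 0.16, adjusted p = 0.529). The 95% intervals ran from -0.64 to 0.30 for Gstm4 and from -0.09 to 0.52 for Gstm5, above those of Gstm1 (-1.64 to -0.76) and Gstm2 (-2.53 to -1.05).

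Ratios within a library do not depend on its scaling. The called members were set over their uncalled neighbours because of the values above, so the ratios are a description and were given no test. The log2 ratio of Gstm1 to Gstm5 averaged 2.0 ± 0.82 in PL and 3.42 ± 0.57 in NT (SD, n = 9 each), lower in 9 of 9 lesions. The ratio of Gstm2 to Gstm5 differed by -1.99 between PL and NT, also lower in 9 of 9 mice. Against Gstm4, the difference was -1.04 for Gstm1 and -1.61 for Gstm2, lower in 8 of 9 mice each. The same 4 log2 ratios differed between PL and NCT by -2.12 to -1.08, in each case with 9 of 9 lesions below the NCT median.

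**Figure D2:**
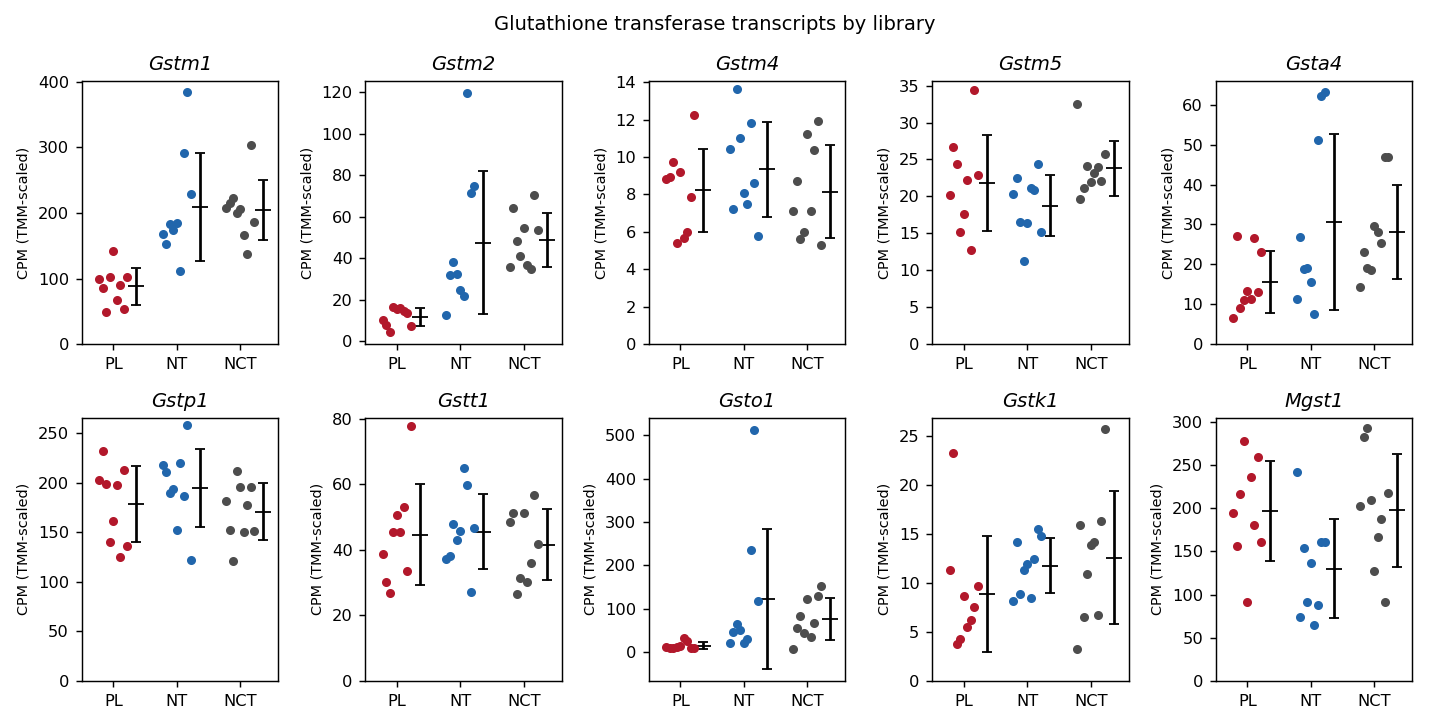
Level of each of the 10 transferase genes in CPM scaled with TMM factors (y axis, linear) in PL, NT and NCT (x axis); points are the 9 libraries of a group in replicate order and the black mark is the mean with its SD. Gstm1 and Gstm2 sit lower in PL, Gsto1 has 1 NT library at 513 CPM, and Gstm4, Gstm5, Gstp1 and Gstt1 overlap across the groups.

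The stretches upstream of Gstm1 and Gstm2 are shown because these genes fell together, with Gstm5 beside them as a member of the cluster that was not called. They come from the RefSeq promoter table (GRCm38.p6), which had an entry for 9 of the 10 members; Gsta4 was not among them. Bases that lie within the annotated gene were left out. The letters TGACNNNGC, the core of the antioxidant response element bound by NRF2, and TGAGTCA, a binding sequence of AP-1, were searched on both strands over the 250 bases before the start. Capitals mark matches. Gstm1 is chr3:108017974-108018223 (minus strand), Gstm2 is chr3:107986454-107986670 (minus) and Gstm5 is chr3:107895604-107895820 (plus). Another Gstm1 entry, chr3:108017819-108018068 (minus), reaches farther into the annotated gene and is not shown.
Gstm1: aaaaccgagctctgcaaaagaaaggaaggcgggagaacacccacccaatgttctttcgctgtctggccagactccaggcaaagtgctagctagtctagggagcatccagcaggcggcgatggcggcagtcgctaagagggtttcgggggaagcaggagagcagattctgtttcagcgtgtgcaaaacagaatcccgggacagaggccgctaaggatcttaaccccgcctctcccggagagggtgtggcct
Gstm2: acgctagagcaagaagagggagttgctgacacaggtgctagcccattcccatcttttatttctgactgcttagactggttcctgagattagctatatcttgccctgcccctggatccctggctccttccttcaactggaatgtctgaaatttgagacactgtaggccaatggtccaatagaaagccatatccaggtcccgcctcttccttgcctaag
Gstm5: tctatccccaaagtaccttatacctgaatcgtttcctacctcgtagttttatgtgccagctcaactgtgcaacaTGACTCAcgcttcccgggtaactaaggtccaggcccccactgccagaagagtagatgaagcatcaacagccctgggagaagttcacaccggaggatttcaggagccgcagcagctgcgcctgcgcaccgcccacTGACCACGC
Gstm5 held 1 match to each motif, the AP-1 letters on the minus strand, and the matches do not overlap. TGACNNNGC was found in 10.2% of 32851 mouse promoters and, among the members, in the searched windows of Gstm5 and Mgst1. The Mgst1 match lay within the annotated gene, and another Mgst1 entry had no match. TGAGTCA was found in 4.46% and, among the members, in the searched windows of Gstm5 and Gstp1. The Gstp1 match lay across the start of the annotated gene. The searched windows of Gstm1 and Gstm2 held neither string of letters.

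Gsto1 encodes the omega class enzyme, which has a cysteine in its active site and reduces dehydroascorbate and mixed disulfides. Its level had a lowest, median and highest value of 8.12, 11.6 and 33.2 CPM in PL, 19.5, 51.7 and 513 CPM in NT, and 6.94, 66.8 and 151 CPM in NCT. Lesions were below the paired tissue in 8 of 9 mice, mouse 6 being the exception, and the spread within NT was wider than for any other member. The log2 fold change in PL against NT was -2.36 (SE 0.63) and was not called (adjusted p = 0.0810), while a fit without the mouse as a block gave -3.11 (adjusted p = 0.0219). Gsto1 lies inside the span of Cfap43, which is on the opposite strand and averaged 5.77 CPM in PL, 9.29 CPM in NT and 7.48 CPM in NCT, and the strand setting of the counting is not given in the sources used here.

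Gsta4 encodes the alpha class enzyme with high activity on 4-hydroxynonenal, an aldehyde of lipid peroxidation. It stood at 6.48, 13.0 and 27 CPM (lowest, median and highest) in PL, 7.66, 19.1 and 63.1 CPM in NT, and 14.2, 25.5 and 47.0 CPM in NCT, with overlapping ranges. It was lower in the lesion in 7 of 9 mice, with a log2 fold change of -0.77 that was not called (SE 0.24, adjusted p = 0.0972). Gstk1, the kappa class enzyme, averaged 8.91 ± 5.92 CPM in PL, 11.7 ± 2.79 CPM in NT and 12.6 ± 6.75 CPM in NCT, and its log2 fold change in PL against NT was -0.56 (SE 0.25, adjusted p = 0.251).

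Mgst1, which encodes the microsomal enzyme with both transferase and peroxidase activity, was the member with the most positive fold change in lesions against NT. It had a lowest, median and highest level of 91.1, 194 and 278 CPM in PL, 64.6, 136 and 242 CPM in NT, and 91.0, 202 and 293 CPM in NCT. The lesion was above the paired tissue in 7 of 9 mice, at a log2 fold change of 0.66 that was not called (SE 0.25, adjusted p = 0.195). PL and NCT had nearly the same mean, 197 CPM each, at a log2 difference of -0.01 (SE 0.21, 95% interval -0.43 to 0.40).

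Gstp1, the pi class enzyme, and Gstt1, the theta class enzyme that acts on small halogenated compounds, lay close to 0 in PL against NT. Gstp1 averaged 178 ± 38.5 CPM in PL, 195 ± 39.7 CPM in NT and 171 ± 28.8 CPM in NCT, with a log2 fold change in PL against NT of -0.12 (95% interval -0.32 to 0.08). Gstt1 averaged 44.6 ± 15.4 CPM in PL, 45.6 ± 11.5 CPM in NT and 41.5 ± 10.9 CPM in NCT, at -0.05 (95% interval -0.33 to 0.23). Neither was called.

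**Figure D3:**
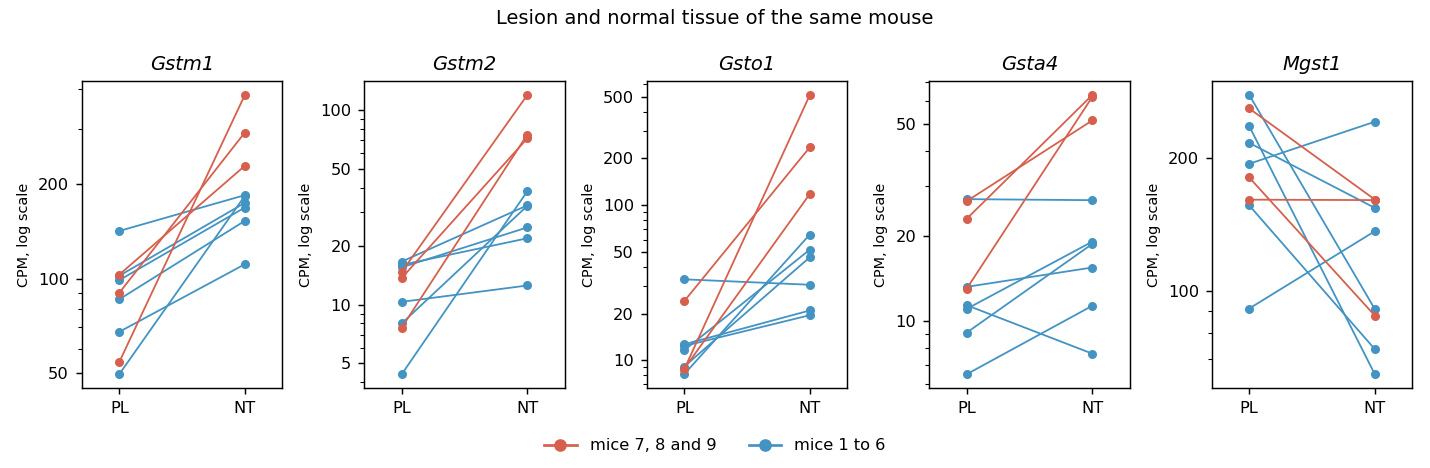
Level in CPM (y axis, log scale) of 5 members in the lesion (PL) and the normal tissue (NT) of the same mouse, 1 line per mouse; red lines are mice 7, 8 and 9, whose NT libraries had over 2000 CPM of Bpifa1, and blue lines are mice 1 to 6. Gstm1 and Gstm2 are lower in PL in 9 of 9 mice and Gsto1 in 8 of 9, with the highest NT values of these 3 genes in the red lines.

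Markers of several other cell types were lower in the same comparison. Of 9 C cell markers tested in PL against NT, 6 fell, none rose and the median log2 fold change was -3.17. Of the 14 airway and squamous markers 13 were tested, 6 fell and none rose, with a median of -2.71. All 10 fibroblast markers had values below 0 with none called in edgeR's test (6 at an unadjusted p under 0.05, median -1.0), as did the 8 adipocyte markers tested (0 at an unadjusted p under 0.05, median -0.69). The 9 macrophage markers also lay below 0, with 1 call (median -0.37). The summed fibroblast markers had a lowest, median and highest value of 696, 1507 and 3916 CPM in PL, 1747, 2774 and 4640 CPM in NT, and 2441, 2985 and 4046 CPM in NCT. Those of adipocytes were at 25.6, 335 and 1449 CPM in PL, 251, 443 and 1134 CPM in NT, and 525, 1076 and 5269 CPM in NCT, and those of macrophages at 191, 594 and 930 CPM in PL, 338, 788 and 1521 CPM in NT, and 361, 487 and 693 CPM in NCT. No marker of these 5 lists was at 0 throughout a group. The part of the C cell, fibroblast, adipocyte and macrophage markers in the members' change from NT was not tested.

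For the airway markers it was examined by library and in further fits. NT replicates 7, 8 and 9 had summed airway marker levels of 7601, 7419 and 7296 CPM, against 176 to 1680 CPM in NT replicates 1 to 6. Most of each of these 3 sums was Bpifa1, at 5837, 5409 and 5814 CPM. Scgb1a1, another of the markers, did not follow the sum. It stood at 39.9, 0.40 and 3.88 CPM in these libraries and at 39.0 CPM in NT replicate 1. Scgb3a2 (191 to 293 CPM) and Cyp2f2 (820 to 1228 CPM) had their highest NT values in NT replicates 7, 8 and 9. These 3 libraries also held the highest NT values of Gstm1 (229 to 384 CPM), Gstm2 (71.7 to 120 CPM), Gsto1 (118 to 513 CPM) and Gsta4 (51.3 to 63.1 CPM). Without those 3 mice, no member was called in edgeR's test (3 at an unadjusted p under 0.05) and 46 genes were: the log2 fold change in PL against NT was -0.87 for Gstm1 (adjusted p = 0.0645), -1.19 for Gstm2 (adjusted p = 0.193), -1.43 for Gsto1 (adjusted p = 0.201) and -0.37 for Gsta4 (adjusted p = 0.576). With the airway marker score as a covariate beside the mouse block, no gene at all was called in edgeR's test (380 at an unadjusted p under 0.05), and the values were -0.27 for Gstm1, -0.18 for Gstm2, 0.27 for Gsto1 and 0.44 for Gsta4. The score is the mean log2 CPM of the markers. The marker sum was lower in the lesion than in the paired NT library in every mouse. The score therefore goes with the tissue, and this fit cannot separate the 2. No member was called either without mice 2, 7 and 9, which had a library over 2000 CPM of Pth (Gstm1 -1.20, adjusted p = 0.166; Gstm2 -1.27, adjusted p = 0.179), or in the 6 females alone (Gstm1 -1.02, adjusted p = 0.10; Gstm2 -1.36, adjusted p = 0.308; edgeR). In mouse 5, whose NT library had the lowest airway marker sum (102 CPM in PL and 176 CPM in NT), the log2 difference was -0.38 for Gstm1, -0.67 for Gstm2 and -0.71 for Gsto1.

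The relation of 4 members to the airway marker sum was also examined inside each group, on log2 values, in 12 relations chosen after the values were seen. NT replicates 7 to 9 stood apart and were left out of NT. The adjusted p-values below cover these 12 relations and not their choice, so they serve as a description. Gsto1 followed the marker sum in PL (r = 0.886, adjusted exact permutation p = 0.027; rho = 0.850, adjusted 0.0364; n = 9) and in NCT (r = 0.873, adjusted exact permutation p = 0.017; rho = 0.950, adjusted 0.00424; n = 9). Without the 2 libraries farthest from the median marker sum, r was 0.675 in PL and 0.825 in NCT. In NT replicates 1 to 6, Gsto1 had r = 0.727 and rho = 0.657, which did not pass (adjusted exact permutation p = 0.19 and 0.388, n = 6). Gsta4 had r = 0.826 in NCT (adjusted exact permutation p = 0.027), with rho = 0.667 not passing (adjusted 0.177) and r = 0.563 without the 2 farthest libraries (n = 9). Gstm2 had r = 0.660 in PL, 0.383 in NT replicates 1 to 6 and 0.542 in NCT, and none passed the adjustment (exact permutation tests, adjusted p 0.151 or more for r and 0.0552 or more for rho). Gstm1 had r = 0.118 in PL, -0.410 in NT replicates 1 to 6 and 0.185 in NCT, with adjusted exact permutation p-values of 0.648 or more for r and 0.475 or more for rho.

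**Figure D4:**
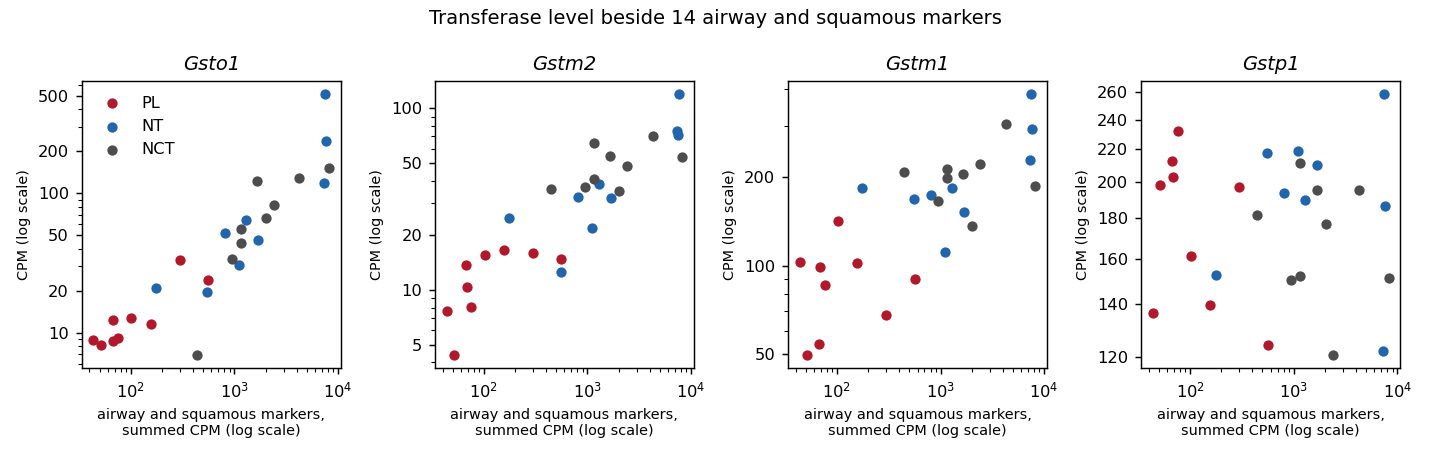
Level of Gsto1, Gstm2, Gstm1 and Gstp1 in CPM (y axes, log scale) against the summed CPM of 14 airway and squamous epithelium markers (x axes, log scale), 1 point per library, colored by group (PL, NT, NCT). Bpifa1 is 1 of the 14 markers and alone stood at 5409 to 5837 CPM in NT replicates 7 to 9. The 9 PL libraries lie at 43.7 to 561 CPM of the markers and NT replicates 7 to 9 at 7296 to 7601 CPM; Gsto1 follows the marker sum within PL (r = 0.886) and NCT (r = 0.873), while Gstm1 has r = 0.118 in PL and 0.185 in NCT.

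Lesions were next set against thyroid of mice without exposure; this comparison shares its lesion libraries with the one above. Gstm1, Gstm2 and Gsto1 fell and no member rose. These 3 called members stand beside 10.1% of 14234 genes called, with 4.62% called as lower and 5.45% as higher. DESeq2, which called 13.1% of genes, called Gsta4 as lower besides these 3. The median log2 fold change was -0.32 over the 10 members, against 0.0038 over all genes tested. Over all genes tested, 12% had all 9 lesions on 1 side of the NCT median. Gstm1 had a log2 fold change of -1.23 (SE 0.17, adjusted p = 8.31e-05), with 9 of 9 lesions under the NCT median, and it stayed called whichever 1 of the 18 libraries was left out. Gstm2 had -2.06 (SE 0.22, adjusted p = 5.23e-06), a 4.16-fold lower level, and its groups did not overlap, as was the case for 1.01% of genes tested. It too stayed called in all 18 fits.

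Gsto1 fell in lesions against NCT by 2.44 on the log2 scale (SE 0.46, adjusted p = 0.00289), with 9 of 9 lesions under the NCT median of 66.8 CPM, although NCT replicate 1 was lower than every lesion. In females alone it was not called (-1.89, edgeR adjusted p = 0.0861), nor with a covariate built from adipocyte markers (-2.14, edgeR adjusted p = 0.173). Gsta4 had a log2 fold change of -0.85 that was not called (SE 0.28, adjusted p = 0.0572), and it was called in 5 of the 18 fits that left out 1 library. The other 6 members were not called: Gstk1 had -0.49 (SE 0.36), and Gstm4, Gstm5, Gstp1, Gstt1 and Mgst1 lay between -0.14 and 0.09. Here 9 of 11 airway and squamous markers tested fell (median -3.43). Of 9 C cell markers 6 fell and 1 rose (median -4.75), and of 10 fibroblast markers 4 fell (median -0.76). None of the 9 adipocyte markers tested was called in edgeR's test, with all 9 below 0 (8 at an unadjusted p under 0.05, median -1.89), nor was any of the 9 macrophage markers (1 at an unadjusted p under 0.05, median 0.16). The part of the C cell, fibroblast and macrophage markers was not tested. Without NCT replicates 8 and 9, which had over 2000 CPM of Bpifa1, the same 3 members were called, at -1.14 for Gstm1 (adjusted p = 0.000468), -1.93 for Gstm2 (adjusted p = 6.42e-05) and -2.05 for Gsto1 (adjusted p = 0.0115). With the airway marker score as a covariate no member was called (2 at an unadjusted p under 0.05), and the values were -1.07 for Gstm1 (SE 0.32, adjusted p = 0.188), -1.24 for Gstm2 (SE 0.34, adjusted p = 0.131) and -0.01 for Gsto1 (SE 0.49). The marker sums of PL (43.7 to 561 CPM) and NCT (441 to 8241 CPM) overlapped only at their ends. This fit therefore separates the score from the group poorly.

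NT was set against NCT to look for a difference outside the lesion; the NCT libraries are those used above. No member was called in edgeR's test (2 at an unadjusted p under 0.05), beside 0.0277% of 14447 genes called (4 genes, 0.00692% as higher and 0.0208% as lower, with 1673 at an unadjusted p under 0.05). None was called in DESeq2 either, beside 0.928% of 14447 genes (134 genes). The most negative values were -0.62 for Mgst1 (SE 0.26, adjusted p = 0.363), with 8 of 9 NT libraries under the NCT median, and -0.36 for Gstm5 (SE 0.15, adjusted p = 0.365), also with 8 of 9 under it. Gsto1 had 0.66 (SE 0.67, adjusted p = 0.747), which became -0.61 without the libraries over 2000 CPM of Bpifa1. Gstm1 had 0.02 (95% interval -0.36 to 0.39) and Gstm2 -0.05 (95% interval -0.73 to 0.63). Over 12 alternative settings, Gstm1 ran from -0.27 to 0.06 and Gstm2 from -0.75 to -0.04, without a call. In NT replicates 1 to 6, Gstm2 stood at 12.5 to 38.3 CPM. NT replicates 7 to 9 held 71.7 to 120 CPM of it, and NCT 35.1 to 70.6 CPM. The value near 0 for Gstm2 thus joins NT libraries that differ widely. The other 5 members lay between -0.10 and 0.18.

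**Figure D5:**
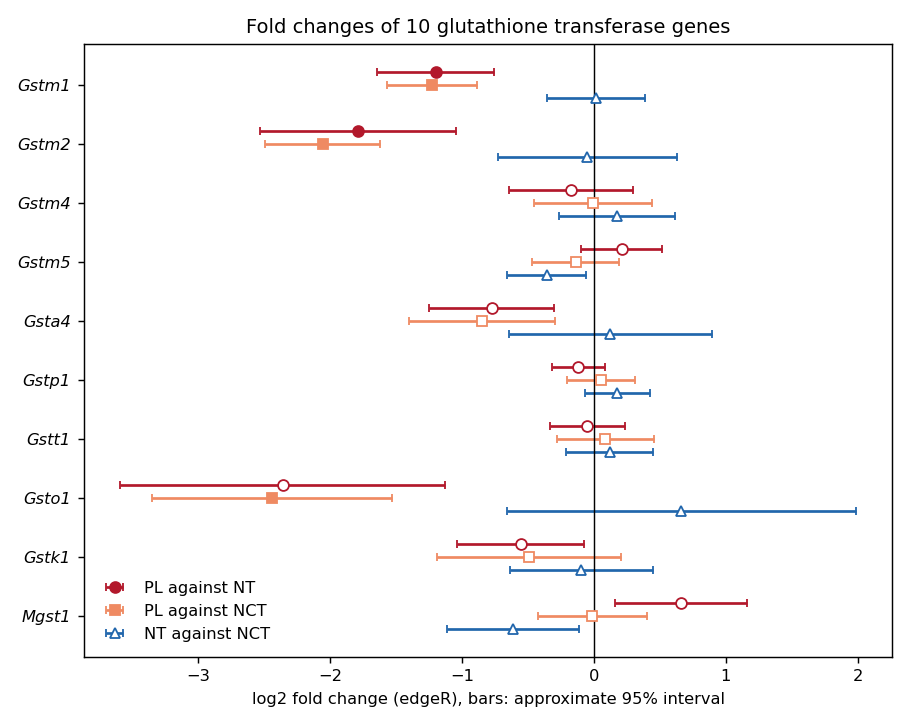
Log2 fold change (x axis) with its approximate 95% interval for each of the 10 members (y axis) in PL against NT (circles), PL against NCT (squares) and NT against NCT (triangles); filled symbols passed an adjusted p under 0.05. Gstm1 and Gstm2 are filled in both comparisons of lesions, Gsto1 in PL against NCT alone, and no triangle is filled.

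Sex was examined in the 18 libraries of normal thyroid, 6 from males and 12 from females, with the group in the model. No member was called in edgeR's test (2 at an unadjusted p under 0.05), beside 0.159% of 14447 genes (23 genes, 0.0138% as higher in males and 0.145% as lower, with 967 at an unadjusted p under 0.05). DESeq2 called Gsta4, beside 0.437% of the 14405 genes to which it gave an adjusted p (63 genes). Gsta4 averaged 45.7 ± 15.8 CPM in males (SD, n = 6) and 21.1 ± 11.2 CPM in females (SD, n = 12), a log2 fold change of 1.12 (SE 0.30, edgeR adjusted p = 0.271). Gstk1 averaged 16.8 ± 4.44 CPM in males and 9.85 ± 3.54 CPM in females, a log2 fold change of 0.76 (SE 0.25, edgeR adjusted p = 0.430). Of the 5 libraries over 2000 CPM of Bpifa1, 4 were male. The change in PL against NT was also compared between males and females in an interaction term: no gene of 14461 was called in edgeR's test (0%, with 401 at an unadjusted p under 0.05), and the member values ran from -2.36 for Gsto1 (SE 1.04) to 0.91 for Gstm4 (SE 0.46).

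Other genes of glutathione metabolism were read from 4 fixed lists, in PL against NT first. In that comparison 3.08% of 14461 genes were called, and 3.54% went 1 way in all 9 mice. Of 19 further transferase genes 11 were tested and none was called; the 2 with the smallest p were Gstt2 at 0.37 (SE 0.14, adjusted p = 0.183) and Gstcd at 0.47 (SE 0.22, adjusted p = 0.282). Of 19 genes that supply and recycle glutathione 17 were tested, and 1 fell: Dpep1, a dipeptidase that cleaves cysteinylglycine outside the cell, averaged 13.5 ± 15.5 CPM in PL, 34.5 ± 15.2 CPM in NT and 42.2 ± 6.21 CPM in NCT (SD, n = 9 each). Its log2 fold change was -1.90 (SE 0.39, adjusted p = 0.0295), lower in 9 of 9 mice, and the call was lost when mouse 3, 6, 7 or 8 was left out (adjusted p up to 0.0818) and without the mouse block (-1.35, adjusted p = 0.218). Glrx, glutaredoxin, had 0.56 (SE 0.15, adjusted p = 0.0520).

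Among 9 genes of conjugate export 7 were tested and 1 fell. Abcg2, an efflux pump of the plasma membrane, averaged 10.2 ± 5.06 CPM in PL, 19.3 ± 6.57 CPM in NT and 20.1 ± 5.51 CPM in NCT (SD, n = 9 each). Its log2 fold change in PL against NT was -1.03 (SE 0.23, adjusted p = 0.0306), lower in 9 of 9 mice; it was called in 3 of 9 fits without 1 mouse (mouse 1, 5 or 6), and not without the mouse block (-0.90, adjusted p = 0.109). Abcc4, another export pump, had -0.39 (SE 0.18, adjusted p = 0.274). All 22 genes of the NRF2 list were tested and none was called, with Abhd4 at 0.68 (SE 0.20, adjusted p = 0.0771) and Ephx1, microsomal epoxide hydrolase, at -0.37 (SE 0.12, adjusted p = 0.0972). Neither Dpep1 nor Abcg2 was called in PL against NT in females alone, without the mice over 2000 CPM of Pth or of Bpifa1, or with the airway score (-0.34 for Dpep1 and -0.50 for Abcg2, edgeR adjusted p = 0.998 each). The median log2 fold changes of the 4 lists, in the order given, were 0.13, 0.18, 0.04 and 0.04.

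In lesions against NCT, the list of further transferases again had no call among 10 tested. Over all 14234 genes tested there, 10.1% were called, 5.45% as higher and 4.62% as lower. Of the 17 tested supply and recycling genes, 3 rose and 1 fell. Slc7a11, the cystine importer that feeds glutathione synthesis, had a log2 fold change of 2.73 (SE 0.69, adjusted p = 0.0167), with 3.57, 13.6 and 98.5 CPM (lowest, median and highest) in PL, 0.30, 4.77 and 15.5 CPM in NT, and 0.34, 2.66 and 9.15 CPM in NCT. Its groups overlapped, and the highest lesions were PL replicates 7 and 9. It was called in all 18 fits that left out a library, at 1.99 without PL replicate 7. In 5 of 12 other settings it was not called: 2.55 in females alone (adjusted p = 0.183), 2.76 without the libraries over 2000 CPM of Pth or Lipf (adjusted p = 0.0918), 2.59 without those over 2000 CPM of Bpifa1 (adjusted p = 0.0611), 4.09 with the airway score (adjusted p = 0.0730) and 0.76 with the adipocyte score (edgeR adjusted p = 0.821). Ggt1, which cleaves glutathione outside the cell, rose by 0.86 (SE 0.22, adjusted p = 0.0138), Esd, an S-formylglutathione hydrolase, rose by 0.42 (SE 0.14, adjusted p = 0.0493), and Dpep1 fell by 1.66 (SE 0.51, adjusted p = 0.0487). Of these, Dpep1 was called in 1 of 18 fits that left out a library, Esd in 5 of 18 and Ggt1 in all 18. Over the 12 other settings Ggt1 was called in 9, at 0.68 to 0.98, Dpep1 in 5 and Esd in 4.

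Abcg2 fell by 0.98 in lesions against NCT (SE 0.29, adjusted p = 0.0331), the 1 call among 7 tested export genes, held in 9 of 18 fits that left out a library. On the NRF2 list, 2 genes rose and 1 fell among 22 tested, beside 10.1% of all genes called in this comparison. Pgd, a dehydrogenase of the pentose phosphate pathway, rose by 0.47 (SE 0.13, adjusted p = 0.0218), Cbr3, a carbonyl reductase, rose by 0.80 (SE 0.24, adjusted p = 0.0357; called in 8 of 18 such fits), and Tkt, transketolase of the same pathway as Pgd, fell by 0.74 (SE 0.16, adjusted p = 0.00495). Pgd and Tkt were called in all 18 such fits. Over the 12 other settings, Pgd was called in 7, at 0.28 to 0.63 (adjusted p up to 0.759), Cbr3 and Abcg2 in 7 each, and Tkt in 8, at -0.85 to -0.26 (edgeR adjusted p up to 0.693). None of the 8 genes called on these lists in PL against NCT was called in females alone, with the airway score or with the adipocyte score (edgeR). In NT against NCT none of the 4 lists had a call, beside 0.0277% of 14447 genes called. Between males and females Ptges, a prostaglandin E synthase of the membrane family that holds Mgst1, was the 1 call on the 4 lists, at a log2 fold change of -1.13 (SE 0.17, edgeR adjusted p = 0.00171), lower in males. The share of all genes called between the sexes was 0.159% of 14447.

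Gstm1 had the smallest p of the members in PL against NT, so the genes whose level was most like its own were listed by Pearson correlation of log2 CPM over the 27 libraries, among 15232 genes. They were Syt7 (r = 0.871), Depp1 (0.869), Gstm2 (0.867), Pnoc (0.864) and Fgfr3 (0.863). The points share mice between PL and NT and span groups that differ, so these values describe the set and no test was made. Among the members, the pair nearest to Gstm1 and Gstm2 was Gstm2 with Gsto1 (r = 0.850), while Gstm1 had r = 0.142 with Gstm4 and -0.126 with Gstm5 over the same libraries.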

How the data were processed

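RNA of laser-captured thyroid was extracted and made into 3′ libraries with a QuantSeq kit, per the labels' protocols. The authors deposited 1 table of raw read counts per gene for 27 libraries; STAR, featureCounts, DESeq2 and the GRCm38 build are named in the submitters' processing notes, with no version. The sources used here do not state the annotation release, the strand setting or how molecular identifiers were handled. Of 54532 rows 54495 were matched to GENCODE M21 names, and the other 37 held 0.00428% of the counts.

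Counts were analysed in R 4.3.3 with edgeR 4.0.16 (limma 3.58.1): TMM factors, a minimum count of 10 (filterByExpr), the robust quasi-likelihood test and Benjamini-Hochberg adjustment over all genes tested, called under 0.05. DESeq2 1.42.0 served as an alternative. PL and NT were paired by mouse, as the mouse numbers give it; over the 9 pairs the correlation of deviations from the group means was -0.00642 to 0.232 (mean 0.134, 6 pairs over 0.1). The scripts were tested on simulated counts. None of 108 library pairs within groups agreed within sampling noise (lowest chi-square per degree of freedom 13.2). Counts range from 2923851 to 14148601 per library, and p-values measure the spread between these mice.

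The members, the gene lists and the comparisons were chosen with earlier results of these data known. All 10 members are described; of each list, every called gene and the 2 with the smallest p in PL against NT are named. Sequences come from GENCODE M21 transcripts and RefSeq promoters (GRCm38.p6). Coordinates are GRCm38. Gsta13, on the list of further transferases, was not analysed here. Alternatives were the scaling, the filter, the tool, the mouse block, covariates, and leaving out libraries.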

Additional observations from a re-analysis of the deposited data

Results flagged for a closer look

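Single libraries were checked for standing far from the rest of their group of 9, by the gap to the next library over the range of the group (Dixon's test at its 95% limit), in 63 groups of members and listed transferases. With normally distributed values, chance alone passes about 5% of such groups. The check used CPM without a log, so that rate may not hold here. In 9 groups the highest library passed, and the lowest library did not pass in any group. Among the members these were Gsto1 in NT replicate 8 at 513 CPM (next 236 CPM), Gstk1 in PL replicate 2 at 23.2 CPM (next 11.3 CPM) and Gstm5 in NCT replicate 1 at 32.5 CPM (next 25.7 CPM). NT replicate 8 had an airway and squamous marker sum of 7419 CPM, and PL replicate 2 had 27396 CPM of Pth. Among the other transferases they were Gsta3 in PL replicate 3 at 317 CPM (next 123 CPM) and in NT replicate 8 at 92.5 CPM (next 57.2 CPM), Gstm6 in PL replicate 7 at 10.3 CPM (next 4.63 CPM), Gstm7 in NT replicate 7 at 21.7 CPM (next 9.40 CPM), Gstt2 in NCT replicate 4 at 134 CPM (next 101 CPM) and Gstz1 in PL replicate 3 at 36.7 CPM (next 26.6 CPM).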

How the results depend on the processing

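Leaving out the mouse as a block in PL against NT (no pairing) gave 3 called members and 402 called genes, with Gsto1 now called (-3.11, edgeR adjusted p = 0.0219) and Dpep1 (-1.35) and Abcg2 (-0.90) no longer called. PL against NT had 5 called members and 1285 genes in DESeq2 (Gstm1, Gstm2, Gsta4 and Gsto1 lower, Mgst1 higher), 832 genes with no filter (members Gstm1 and Gsta4; Gstm2 adjusted p = 0.0773 in edgeR), 0 members and 6 genes in females alone, 0 and 95 without the mice over 2000 CPM of Pth, 0 and 46 without those over 2000 CPM of Bpifa1, and 0 and 0 with the airway score and the replicate block (380 genes at an unadjusted p under 0.05 in edgeR's test). Leaving out 1 mouse at a time gave 1 to 3 members and 137 to 529 genes, the fewest without replicate 8, and the count moved by over 1.5 times without replicates 2, 3, 4, 7 or 8. PL against NCT had 450 genes in females alone, 797 without the Pth or Lipf libraries (those over 2000 CPM of either), 126 with the adipocyte score, and 0 members and 60 genes with the airway score; single libraries moved it over 3 to 4 members and 1126 to 1655 genes. NT against NCT had no called member under any alternative run, and 15 genes with no filter, 134 in DESeq2, 7 with the leading digits of the mouse number as a covariate, 1 in females alone, 1 without Pth or Lipf libraries, 0 with the adipocyte score, 12 without Bpifa1 libraries, and 0 to 12 when 1 library was left out. Male against female had 1 called member (Gsta4, higher in males) and 63 genes in DESeq2, 3 genes without Pth or Lipf libraries, 7 with the mouse number covariate, 2 without Bpifa1 libraries and 11 with the airway score; the interaction with sex had 7 genes with no filter. The airway score and the Bpifa1 exclusion in comparisons other than PL against NT were chosen after seeing the data.

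Changes of sign were all in values that were not called. In PL against NT they came with the airway score for Gstm5 (-0.054), Gsta4 (0.44) and Gsto1 (0.27), and for Gstt1 when 1 mouse was left out (-0.15 to 0.044). In PL against NCT, Gstm4 was 0.019 with no filter, 0.0063 in a fit of all 27 libraries, 0.12 without Pth or Lipf libraries, 0.031 without Bpifa1 libraries and -0.092 to 0.084 without 1 library; Mgst1 was 0.0066 with no filter, 0.0010 with sex, 0.23 with the mouse number, 0.030 with the adipocyte score, 0.053 with the airway score and -0.11 to 0.089 without 1 library; Gstp1 was -0.024 in females and -0.11 with the airway score; Gstt1 was -0.053 with the adipocyte score and -0.045 to 0.16 without 1 library. In NT against NCT, Gstm1 was -0.10 in females, -0.22 with the adipocyte score, -0.018 with the airway score, -0.27 without Bpifa1 libraries and -0.15 to 0.11 without 1 library; Gsta4 was -0.11 with the mouse number, -0.087 in females, -0.032 with the airway score, -0.46 without Bpifa1 libraries and -0.082 to 0.26 without 1 library; Gstk1 was 0.084 in females, 0.49 with the adipocyte score, 0.22 without Pth or Lipf libraries, 0.029 without Bpifa1 libraries and -0.23 to 0.090 without 1 library; Gstm4 was -0.10 and Gstp1 -0.045 with the adipocyte score; Gsto1 was -0.61 without Bpifa1 libraries and -0.072 to 0.85 without 1 library; Gstm2 was -0.35 to 0.077 without 1 library. In male against female, Gstm2 was -0.047 and Mgst1 0.16 with the mouse number, Gstp1 0.12 without Pth or Lipf libraries, and Gstm1 -0.18 and Gsto1 -0.22 without Bpifa1 libraries. The cause of these shifts was not tested.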

Other observations

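Gsta3, an alpha class transferase that was chosen for this paragraph after its values were seen, was spread most widely in lesions, at 27.5, 68.6 and 317 CPM (lowest, median and highest) in PL, 22.7, 51.7 and 92.5 CPM in NT, and 31.1, 43.3 and 67.0 CPM in NCT. Its log2 fold change was 0.72 in PL against NT (SE 0.40, edgeR adjusted p = 0.394) and 1.09 in PL against NCT (SE 0.37, edgeR adjusted p = 0.0702), so it was not called in either, and the groups overlapped.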
